A study of Danio rerio with 9 samples.

Results

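The 7 epidermal keratin genes krt4, krt5, krt8, krt91, krt92, krt97 and krt99 were followed through zebrafish development. They were chosen by symbol, matched without regard to case, and each symbol led to 1 Ensembl gene, so 7 of the 29291 genes in the table were members. All 7 were among the 19868 genes that reached 1 RPKM (reads per kilobase of gene, scaled to the mapped reads of the library) in at least 1 library. Poly(A) RNA came from whole AB-strain embryos or larvae, about 2000 pooled individuals per stage, with no treatment group. Development was sampled before and during epiboly at 2 hpf (hours post-fertilization; 64-cell), 3.6 to 4 hpf (oblong-sphere) and 5.25 hpf (50%-epiboly). A somite-stage embryo followed at 16.5 to 17.5 hpf (15-somite). Later ages were 36 hpf for Prim-25, 48 hpf for Long-pec, 60 hpf for Pec-fin, 72 hpf for Protruding-mouth, and 1 week for the larva. With a single library at each of these 9 ages there was no replicate error and no test, and all comparisons are descriptions of the libraries. Since whole animals were pooled, a larger number of keratin-making cells and more RNA per cell cannot be told apart.

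Keratins are the intermediate filament proteins of epithelia, and a filament is built from pairs of 1 type I and 1 type II keratin. In the zebrafish the first epithelium is the enveloping layer, a thin sheet over the blastoderm that spreads with epiboly and later forms the periderm, the outer layer of the larval skin. A basal layer of keratinocytes, which depends on the transcription factor p63, lies under it. Keratins 4, 5 and 8 are type II by name, and in mammals keratin 8 pairs with keratin 18 in simple epithelia. The type of krt91, krt92, krt97 and krt99 was not set here, and they are called the other 4 members. The RefSeq table for assembly GRCz12tu lists krt8 as an older name of krt4, so the genes are held apart by identifier, with krt4 as ENSDARG00000017624, krt8 as ENSDARG00000058358 and krt5 as ENSDARG00000058371. The other 4 are ENSDARG00000036830 (krt91), ENSDARG00000036834 (krt92), ENSDARG00000000212 (krt97) and ENSDARG00000019365 (krt99). Keratins resemble each other, so reads from near-identical stretches could be split between them, which makes low values beside high ones uncertain.

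The libraries held between 123311411 mapped reads (64-cell) and 205507592 (Protruding-mouth), as recovered from the values, with no total recovered for Pec-fin. Digestive genes served as a check of the early libraries. The 12 exocrine pancreas genes measured summed to 79.5 RPKM at 64-cell, 0.508 at oblong-sphere, 44.3 at 50%-epiboly and 98.7 at 15-somite. They summed to 21.1 RPKM at Prim-25, 77.1 at Long-pec, 6.83 at Pec-fin, 166 at Protruding-mouth and 30573 at 1 week. The 64-cell, 50%-epiboly and 15-somite libraries thus each held more RNA of these genes than the oblong-sphere library.

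The most abundant of the 7 was krt4 in each library from 50%-epiboly to 1 week. The level of this type II gene, whose promoter is widely used to mark the outer skin layer, was 1.56, 3.24, 1886, 4266, 5908, 3901, 3249, 3181 and 2050.4 RPKM from the first stage to the last. It was low in the 2 libraries before epiboly, highest at Prim-25, and within 3.13-fold from 50%-epiboly onward. At Prim-25 it was the 5th highest gene of the whole table and held 1.49% of the summed RPKM. At 64-cell its level rested on 475 reads, with an exact 95% Poisson interval of 1.42 to 1.71 RPKM, and at oblong-sphere on 1514 reads, with one of 3.07 to 3.40. Intervals cover counting error only.

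The type II gene krt5, another marker of the enveloping layer and periderm in zebrafish, had 10.17, 1.06, 904, 1433, 337, 230.2, 276, 456 and 1252 RPKM over the same stages. Its course had 2 maxima, at 15-somite and at 1 week, with the lowest level after epiboly at Long-pec. The simple-epithelial gene krt8 had 3.96, 1.11, 917, 557, 228, 286, 235, 189 and 432 RPKM. It was highest at 50%-epiboly, where its level was close to that of krt5, and lowest after that at Protruding-mouth. By counting error alone krt5 and krt8 were apart at 50%-epiboly, with 95% intervals of 901 to 906 RPKM and 915 to 920 RPKM.

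Among the other 4 members, krt91 had 5.19, 0.306, 24.1, 45.4, 111, 109, 138, 151 and 1102 RPKM from 64-cell to 1 week. It was the lowest of the 7 at 50%-epiboly and the third highest at 1 week. The krt92 levels were 0.0566, 0.00736, 220.1, 218, 31.3, 28.0, 19.1, 21.6 and 330.1 RPKM. They were high at 50%-epiboly and 15-somite, low from Prim-25 to Protruding-mouth, and high again at 1 week. For krt97 the values were 0.496, 0.0737, 114, 37.5, 17.2, 29.2, 21.6, 13.2 and 213 RPKM, a course with the same 2 high ends but a lower 15-somite level.

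The seventh gene, krt99, had 0.167, 0.0181, 363, 241, 6.63, 7.09, 3.50, 1.91 and 3.07 RPKM. It was high at 50%-epiboly and 15-somite and stayed under 10 RPKM in the 5 later libraries. Its highest level from 50%-epiboly onward was 190.3 times its lowest, against 45.7 times for krt91, 17.3 for krt92, 16.2 for krt97, 6.23 for krt5, 4.85 for krt8 and 3.13 for krt4. The tau index, which runs from 0 for an even course to 1 for a gene seen at a single stage, was 0.71 for krt99 and 0.28 for krt4. The index was 0.31 for krt5, 0.33 for krt8, 0.49 for krt91 and krt92, and 0.51 for krt97. Over all 19868 genes its median was 0.49 and its upper quartile 0.67.

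**Figure D1:**
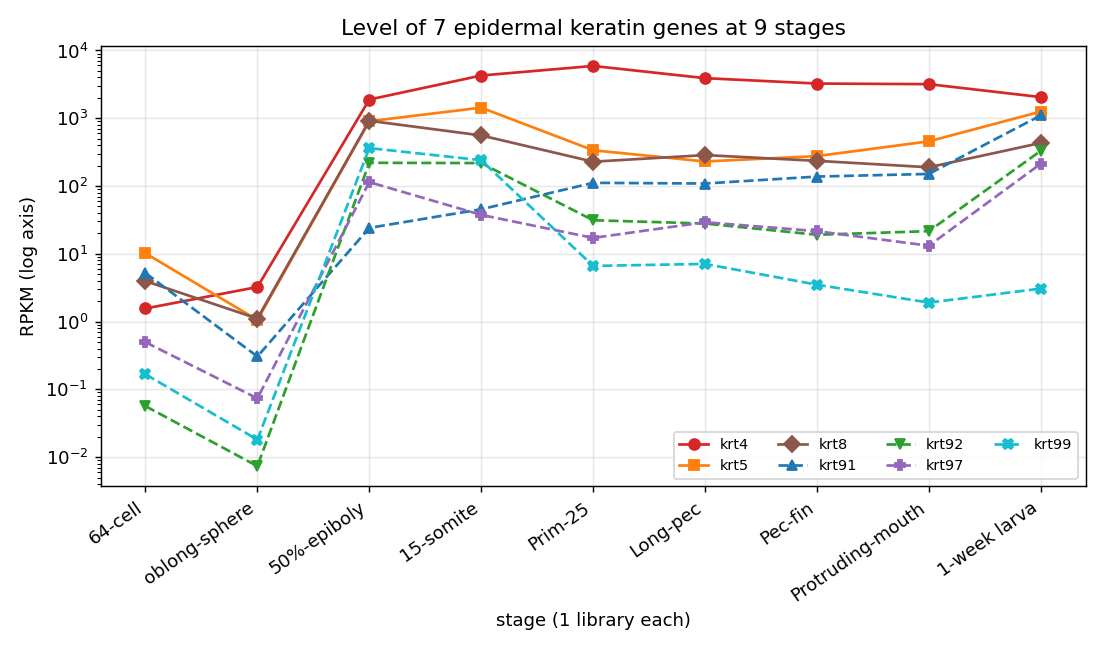
RPKM of the 7 keratin genes (log axis) in the 1 library of each of 9 stages; solid lines are type II genes and dashed lines the other 4 members. All 7 are low before 50%-epiboly, krt4 stays between 1886 and 5908 RPKM afterwards, krt99 is under 10 RPKM after 15-somite, and krt91, krt92 and krt97 are high at 1 week.

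Before epiboly the members were at low levels, and krt5, krt8 and krt91 were lower at oblong-sphere than at 64-cell. Higher and lower calls between neighbouring stages were made when log2(RPKM + 1) differed by at least 1 (2-fold), a rule of size that understates changes of low genes. Of the 7 members 3 were lower at oblong-sphere and 0 higher, where 3.3% of all genes were lower and 3.1% higher. The level of krt91 at 64-cell was 16.99 times that at oblong-sphere, that of krt5 9.63 times and that of krt8 3.57 times. The differences of krt92, krt97 and krt99 were too small on this scale to be counted, but with a pseudocount of 0.1 in place of 1 the numbers were 5 lower and 1 higher. The shares of all genes were not recomputed with that pseudocount. For krt92 only 10 reads at 64-cell and 2 at oblong-sphere were behind the values, with 95% intervals of 0.0271 to 0.104 and 0.000891 to 0.0266 RPKM. The opposite course was that of krt4, which went from 1.56 to 3.24 RPKM. Pancreas genes were lower along with krt5, krt8 and krt91, with 11 of 12 at 1 RPKM or more at 64-cell and 0 at oblong-sphere. The 7 liver and yolk precursor genes summed to 51.3 and then 0.0806 RPKM. The part of such RNA in the 64-cell keratin values was not tested.

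Between oblong-sphere and 50%-epiboly, when the enveloping layer spreads over the yolk, all 7 members were at least 2-fold higher, where 14.4% of all genes were higher and 31.1% lower. The differences ran from 4.27 for krt91 to 8.80 for krt4, with a median of 8.48 against -0.09 over all genes. In log2(RPKM + 1), which understates changes of low genes, krt4 held the 4th largest positive difference among the 19868 genes. krt5 (8.78) was 6th, krt8 (8.77) 7th and krt99 (8.48) 10th. krt92 (7.78) and krt97 (6.74) came at places 14 and 37. Relative to oblong-sphere the 50%-epiboly level was 583-fold for krt4, 855-fold for krt5, 828-fold for krt8, 78.9-fold for krt91 and 1549-fold for krt97. The krt97 level at oblong-sphere rested on 21 reads, with a 95% interval of 0.0456 to 0.113 RPKM. For krt99 the 50%-epiboly level was 20020-fold, from an oblong-sphere level that rested on 13 reads. For krt92, with 2 reads at oblong-sphere, no fold is given. Measured from the 64-cell library instead, again 7 of 7 were higher, but the share of all genes was not computed for that comparison. Pancreas genes summed to 0.508 RPKM at oblong-sphere and 44.3 at 50%-epiboly, and their part in the keratin values was not tested.

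**Figure D2:**
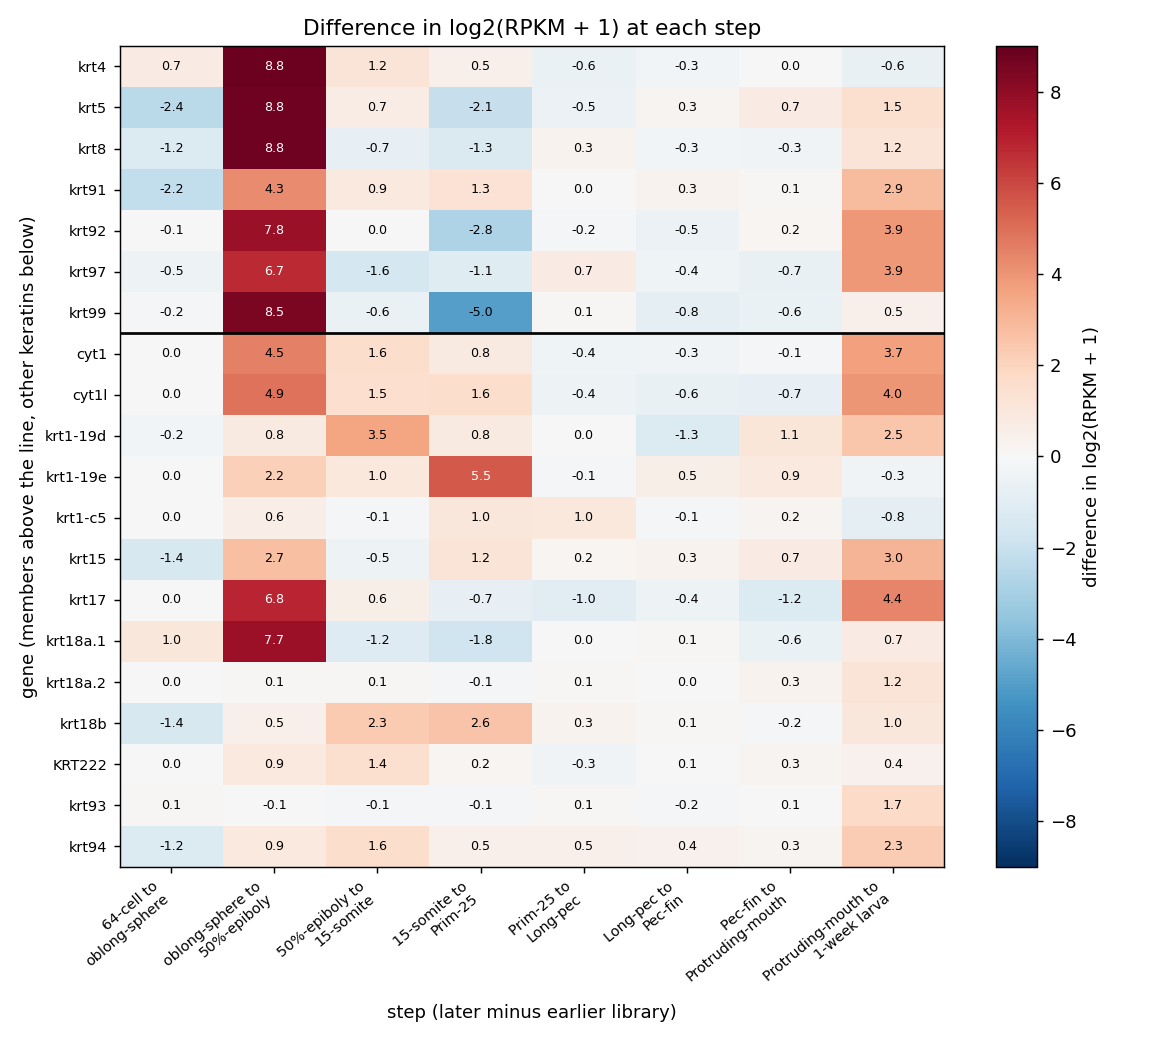
Difference in log2(RPKM + 1), later minus earlier library, for the 7 members (above the line) and for the other keratins that reached 1 RPKM (below) at each of 8 steps. The second column holds the largest positive values of the members, from 4.27 to 8.80, and the fourth column the lowest value, -4.99 for krt99.

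From 50%-epiboly to 15-somite the members parted. krt4 was higher (1886 and then 4266 RPKM, a difference of 1.18), krt97 was lower (114 and then 37.5 RPKM, -1.58), and the other 5 were within 2-fold, where 16.4% of all genes were higher and 4.91% lower. krt92 was at nearly the same level in both libraries, 220.1 and 218 RPKM. Median-of-ratios scaling moved log2 values at this step down by 0.63, and under it 0 members were higher and 3 lower, with krt4 at 0.55, krt8 at -1.35 and krt99 at -1.22. The shares of all genes were not recomputed under that scaling.

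Between 15-somite and Prim-25 most members were lower while krt91 was higher. Of the 7 members 5 were at least 2-fold lower and 1 higher, where 4.96% of all genes were lower and 6.23% higher. krt99 had the most negative difference of all 19868 genes, -4.99, with 241 and then 6.63 RPKM. krt92 (-2.76), krt5 (-2.09), krt8 (-1.28) and krt97 (-1.09) were lower too. krt91 was at 45.4 and then 111 RPKM (1.28), and krt4 at 4266 and then 5908 RPKM (0.47). Leaving out the 100 most abundant genes from the scaling put krt97 at -0.97, just within 2-fold. The summed pancreas genes were also lower at this step, from 98.7 to 21.1 RPKM, and their part in the keratin values was not tested. With 50%-epiboly in place of 15-somite, a comparison added after seeing the data, 5 members were lower and 2 higher at Prim-25. The share of all genes was not computed for that comparison, so these counts have no background.

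The 3 steps between Prim-25 and Protruding-mouth held 0 members called higher or lower by the rule on log2(RPKM + 1). In plain RPKM krt99 was 2.02-fold lower from Long-pec to Pec-fin, at 7.09 and then 3.50 RPKM. The background was small at the first 2 of these, with 0.81% of genes higher and 0.403% lower from Prim-25 to Long-pec, and 0.785% and 0.72% from Long-pec to Pec-fin. From Pec-fin to Protruding-mouth 7.18% of genes were higher and 2.1% lower. The largest member differences were 0.74 for krt97 at the first step, -0.85 for krt99 at the second and 0.72 for krt5 at the third.

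Between Protruding-mouth and the 1-week larva 5 of 7 members were at least 2-fold higher and 0 lower, where 15.1% of all genes were higher and 6.86% lower. krt97 was 16.2-fold higher (13.2 and then 213 RPKM), krt92 15.3-fold (21.6 and then 330.1 RPKM) and krt91 7.31-fold (151 and then 1102 RPKM). The type II genes krt5 (456 and then 1252 RPKM, 1.45) and krt8 (189 and then 432 RPKM, 1.19) were higher by less. krt4 was at 3181 and then 2050.4 RPKM (-0.63). The 1-week values depend on the scaling, since median-of-ratios scaling moves log2 values down by 0.43 here. Under that scaling 4 members were higher and krt4 was lower at -1.06, while krt91, krt92 and krt97 kept differences of 2.43, 3.43 and 3.47. The pancreas genes went from 166 to 30573 RPKM at this step, and their part in the keratin values was not tested. Leaving the 100 most abundant genes out of the scaling gave 3 members higher, krt91, krt92 and krt97, and 1 lower, krt4. The shares of all genes given here are for the deposited values and were not recomputed for either rescaling. As deposited, krt92 and krt97 were highest at 1 week. After median-of-ratios scaling they were highest at 50%-epiboly, with 325 against 202 for krt92 and 169 against 130.1 for krt97.

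The 7 members summed to 21.6 RPKM at 64-cell, 5.80 at oblong-sphere, 4427 at 50%-epiboly, 6798 at 15-somite and 6639.6 at Prim-25. Later sums were 4589.97 at Long-pec, 3943 at Pec-fin, 4013 at Protruding-mouth and 5382 at 1 week. These differences depend on the scaling: after median-of-ratios scaling the sum was 6538 at 50%-epiboly and 6482 at 15-somite, and 3297 at Protruding-mouth and 3286 at 1 week. As a share of the summed RPKM of a library this was 1.26% at 50%-epiboly, 1.74% at 15-somite, 0.881% at Pec-fin, 1.02% at Protruding-mouth and 0.993% at 1 week, so from Protruding-mouth to 1 week the deposited sum was higher and the share was not. The share of krt4 in the sum was 42.6% at 50%-epiboly, 89.0% at Prim-25 and 38.1% at 1 week. Over the 7 libraries from epiboly on, its share was thus highest at Prim-25 and lowest at 1 week.

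**Figure D3:**
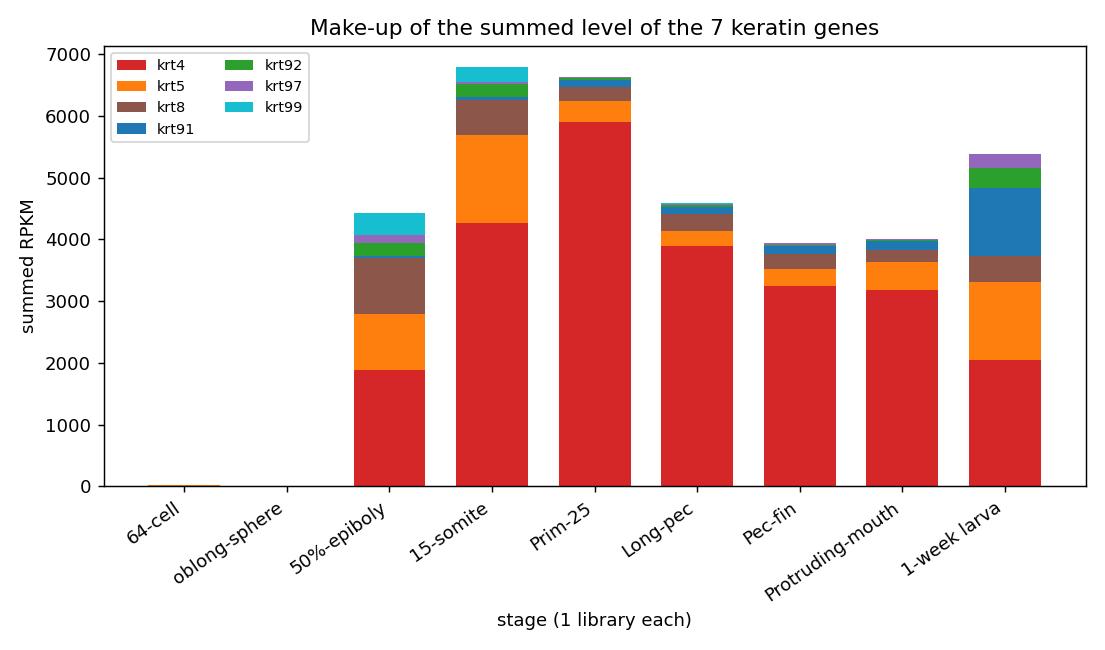
Summed RPKM of the 7 keratin genes in the 1 library of each stage, stacked by gene. The bars are near 0 before epiboly, krt4 makes up 89.0% of the Prim-25 bar, and every member but krt4 has a taller segment at 1 week (5382 RPKM in all) than at Protruding-mouth, krt91 and krt5 by the most.

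Since keratins pair across types, the summed level of krt4, krt5 and krt8 was set against that of the other 4 members in each library, a ratio that no scaling of a library changes. It was 5.14 at 50%-epiboly, 11.6 at 15-somite, 38.9 at Prim-25, 25.5 at Long-pec, 20.7 at Pec-fin, 20.4 at Protruding-mouth and 2.27 at 1 week. Without krt4 the ratio was 2.53, 3.68, 3.40, 2.98, 2.81, 3.44 and 1.02 at the same stages. Without the most abundant gene of each group in each library it was 5.08, 6.62, 10.3, 8.03, 11.6, 17.6 and 3.08. The gene left out of the other 4 was krt99 at 50%-epiboly and 15-somite, and krt91 from Prim-25 on. This form thus does not follow a fixed set of genes, and whether the middle stages stay above both ends cannot be read from it. Against the sum of all 19 other measured keratins the type II members stood at 1.44 at 50%-epiboly, 4.73 at Prim-25 and 0.656 at 1 week. The 1-week library thus had the lowest of these ratios from epiboly onward in each of these forms.

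**Figure D4:**
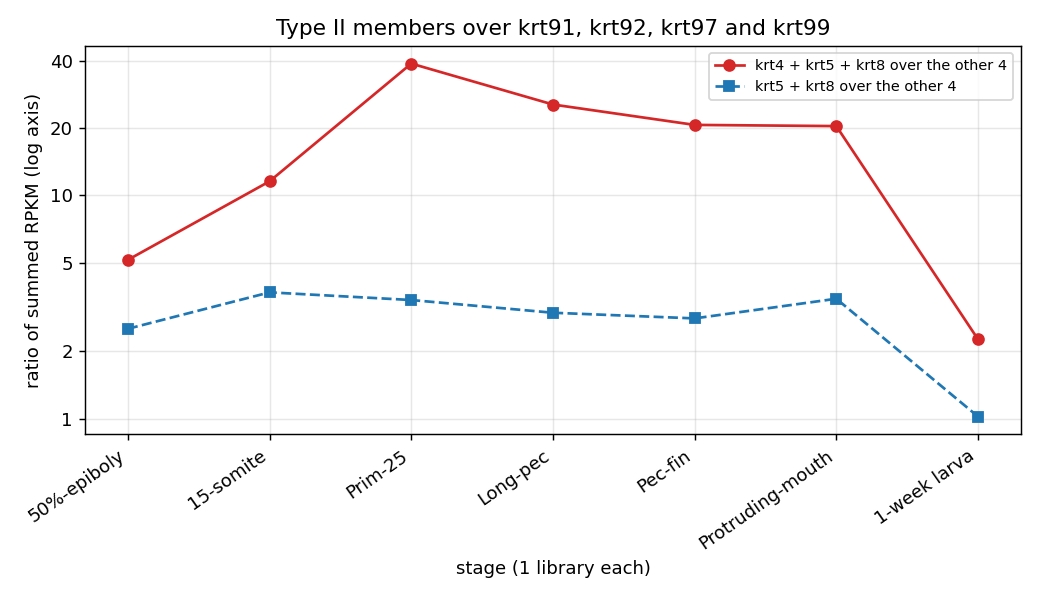
Ratio of summed RPKM (log axis) of type II members over krt91, krt92, krt97 and krt99 in the 1 library of each stage from 50%-epiboly on, with krt4 (solid) and without it (dashed). The solid line peaks at 38.9 at Prim-25 and ends at 2.27, while the dashed line stays between 2.53 and 3.68 until it ends at 1.02.

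In the GRCz12tu assembly krt91 and krt92 lie in a row of 7 keratin genes with 0 other protein-coding genes between them, in the order krt1-19d, krt1-19e, krt92, cyt1l, cyt1, krt17 and krt91. At 50%-epiboly krt92 (220.1 RPKM) and krt17 (114 RPKM) were the highest of the row, and krt91 (24.1), cyt1l (28.3) and cyt1 (22.3) were alike. krt1-19e, a keratin of basal keratinocytes, was at 3.71 and krt1-19d at 0.745 RPKM. At Prim-25 krt1-19e led with 419 RPKM, ahead of cyt1l with 239, cyt1 with 123, krt91 with 111 and krt17 with 103, and krt92 was the lowest at 31.3. At 1 week cyt1l, cyt1 and krt91 were at 1089, 900.03 and 1102 RPKM, krt1-19e at 837, krt17 at 350.5, krt92 at 330.1 and krt1-19d at 179. Within the row krt92 was thus above krt91 at 50%-epiboly and below it at Prim-25 and 1 week.

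krt5, krt8, krt18a.1 and krt18a.2 also follow each other with 0 protein-coding genes between. krt18a.1, named for the keratin that pairs with keratin 8, had 3.06, 7.11, 1668, 736, 212, 206, 217, 141 and 238 RPKM. Like krt8 it was highest at 50%-epiboly, and the level of krt8 over that of krt18a.1 was 0.550 there, 0.757 at 15-somite, 1.08 at Prim-25 and 1.82 at 1 week. krt99 lies next to krt15, which had 6.59 RPKM at 50%-epiboly and 235 at 1 week, where krt99 had 363 and 3.07. krt4 lies 1 protein-coding gene from krt18b, which had 0.475 RPKM at 50%-epiboly, 43.9 at Prim-25 and 108 at 1 week. krt97 lies between krt222 and krt96, and krt96 was not analysed here.

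Of the 15 other measured keratins 13 reached 1 RPKM. Of these 6 were at least 2-fold higher at 50%-epiboly and 0 lower (median 0.91), led by krt18a.1 and krt17, where 14.4% of all genes were higher and 31.1% lower. At 1 week 9 of 13 were higher than at Protruding-mouth and 0 lower, where 15.1% of all genes were higher and 6.86% lower, with a median of 1.72 against 0.00 over all genes. As deposited, the 1-week library was the highest for 12 of the 15 other keratins and for 3 of the 7 members, and for 27.2% of all 19868 genes. The 12 include the other keratins that did not reach 1 RPKM, which are not among the 19868. After median-of-ratios scaling the members krt92 and krt97 were highest at 50%-epiboly instead. 50%-epiboly was the highest for krt8, krt99 and krt18a.1, and for 9.06% of all genes.

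Over all 9 libraries Pearson's r of log2(RPKM + 1) between pairs of members ran from 0.14 (krt91 and krt99) to 0.98 (krt5 and krt8). krt99 was also less like krt4 (0.54), krt97 (0.63) and krt5 (0.67). All points share the low first 2 libraries. Over the 7 libraries from 50%-epiboly on, krt4 had an r of -0.56 with krt8, -0.46 with krt5 and -0.77 with krt97, and krt91 had one of -0.77 with krt99. The r of krt5 and krt92 was 0.93 there and 0.95 over 9 libraries, and that of krt92 and krt97 was 0.87 there and 0.97 over 9. For krt8 and krt99 it was 0.87 from 50%-epiboly on and 0.71 over 9. The values describe 1 library per stage and carry no test.

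Of 7357 other genes with a unique symbol and at least 10 RPKM, those with the course most like krt4 over 9 libraries were atp1b3a (0.99), RGS4 (0.99) and CKMT1B (0.99). The sodium pump subunit gene atp1b3a had 0.0213 RPKM at oblong-sphere and 28.1 at 50%-epiboly. For krt8 they were fbp1b, CEBPA and slc3a2a, where fbp1b, a gluconeogenic enzyme gene, reached an r of 0.999 with 345 RPKM at 50%-epiboly and 70.0 at Protruding-mouth. krt5 was closest to BCCIP, fetub and MIA, krt91 to H1-10, lyrm2 and gpx1a, and krt92 to eef1a1l1, slc38a5b and BCCIP. krt97 was closest to EIF4A2, bicdl2l and eef1a1l1, and krt99 to ripply1, MAK16 and zgc:56585. With Spearman's rank correlation at most 1 of each 3 genes remained among the closest.

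Other epidermal genes were described by lists, to be read against the 14.4% of all genes that were higher and the 31.1% that were lower at 50%-epiboly (median -0.09). Gene IDs were found for only part of each of these lists. There were 13 for 23 regulators, 15 for 26 desmosome, hemidesmosome and plakin genes, and 15 for 18 adhesion genes. Ionocyte and mucous cell genes had 10 for 14, skin envelope genes 7 for 16 and other filament genes 10 for 13. Of 13 regulators of periderm and epidermis past the filter 8 were at least 2-fold higher at 50%-epiboly and 0 lower (median 1.33). TFAP2C (0.892 and then 26.3 RPKM) and TFAP2A (5.22 and then 63.3 RPKM), AP-2 factors of the ectoderm, and GRHL1 (0.427 and then 10.4 RPKM), a grainyhead factor of epithelia, had the largest differences. grhl3, another grainyhead factor, was at 22.0 RPKM at oblong-sphere, where krt4 was at 3.24, krt5 at 1.06 and krt92 at 0.00736. TP63, the basal layer factor, had 3.26 RPKM at oblong-sphere, 14.5 at 50%-epiboly and 23.4 at 15-somite. Later TP63 was lower, with 14.3 RPKM at Prim-25 and 6.49 at 1 week.

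Of 13 desmosome, hemidesmosome and plakin genes past the filter 6 were higher at 50%-epiboly and 1 lower (median 0.78). Among the 6 were the plakophilin gene pkp3a (0.151 and then 17.3 RPKM) and the envoplakin gene evpla (0.0238 and then 15.1 RPKM). The 1 lower was another plakophilin gene, pkp1a (9.57 and then 0.476 RPKM). Epithelial adhesion and tight junction genes went both ways, with 3 of 15 higher and 7 lower (median 0.15), shares not far from the 14.4% and 31.1% of all genes. The claudin genes cldnb (0.392 and then 45.9 RPKM), cldne (2.71 and then 111 RPKM) and cldnf (0.00925 and then 13.5 RPKM) were the 3 higher. The 7 lower were the occludin genes oclna (131 and then 37.9 RPKM) and oclnb, and cldn7b (113 and then 31.2 RPKM), epcam, tjp3, spint1b and st14a. Of 7 skin envelope and surface genes 6 were higher (median 2.60), while ionocyte and mucous cell genes were mostly within 2-fold (1 of 9 higher and 0 lower, median 0.10). Of 10 other intermediate filament genes 2 were higher (median 0.31).

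At the step to Prim-25, where 5 of 7 members were lower, 3 of the 13 regulators were lower and 0 higher (median -0.47), where 4.96% of all genes were lower and 6.23% higher. These included GRHL1 (12.1 and then 4.14 RPKM), TFAP2C (15.0 and then 5.70 RPKM) and grhl3 (10.201 and then 4.43 RPKM). Skin envelope genes (median 0.37, 3 of 7 higher) and other keratins (median 0.82, 5 of 13 higher and 1 lower) did not share the members' median of -1.28. At 1 week, where 15.1% of all genes were higher and 6.86% lower, 3 of 7 skin envelope genes were higher (median 0.97). Of 15 adhesion genes 2 were higher (median 0.48), a share near that of all genes, with cldnb at 31.2 and then 92.4 RPKM. The desmosome list had 0 of 13 higher and 1 lower there (median 0.18), and the regulators had 3 higher and 3 lower (median 0.20), beside a member median of 1.45.

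**Figure D5:**
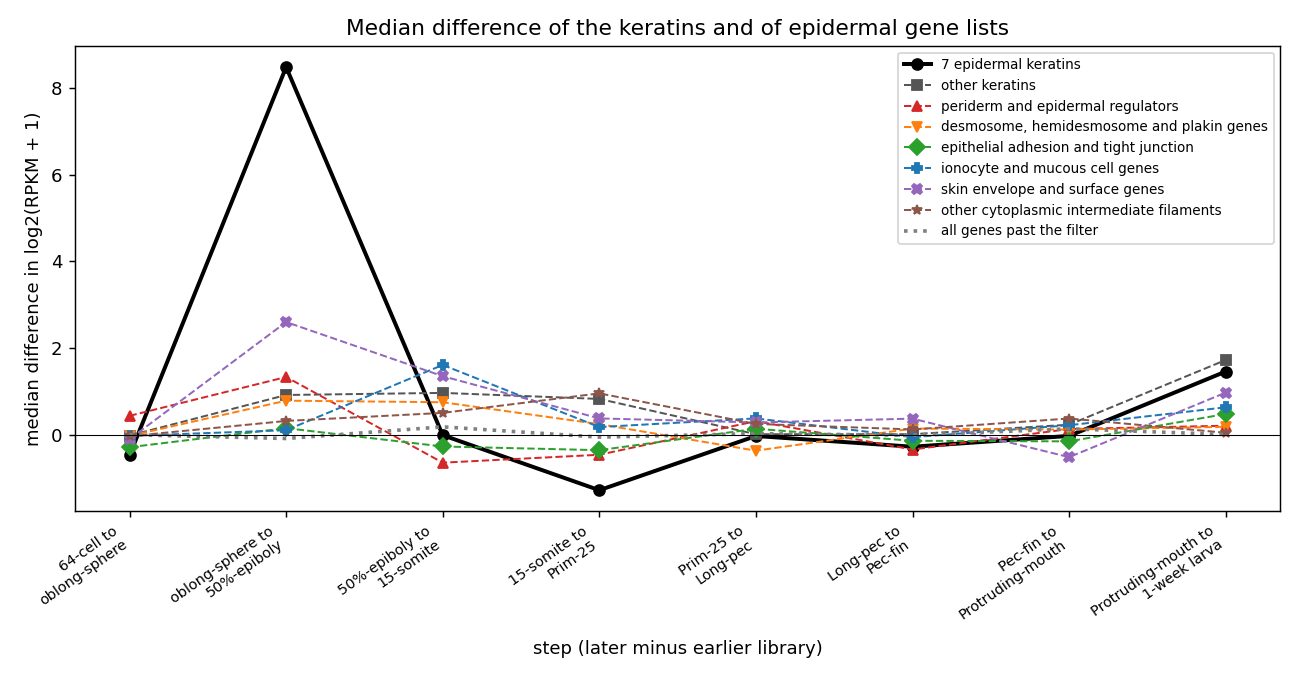
Median difference in log2(RPKM + 1) at each of 8 steps for the 7 keratins (thick black line), for 7 lists of other epidermal or filament genes, and for all 19868 genes past the filter (dotted). The keratin median reaches 8.48 at 50%-epiboly, against 2.60 for skin envelope genes (7 found of 16 listed), and is -1.28 at Prim-25 and 1.45 at 1 week.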

How the data were processed

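Poly(A) RNA was fragmented with RNase III, reverse transcribed and sequenced as SOLiD fragment libraries, per the labels' protocols. The authors deposited 1 RPKM value per Ensembl gene and stage, and the build was Zv9 per the submitters' processing notes. Information on the aligner, counting program, annotation and filters was not given in the sources used here. Gene symbols came from a table of gene IDs that matched 19580 of 29291 IDs, and gene neighbours from a RefSeq table of another assembly, so no coordinates are printed. Protein and promoter sequences were not used here, so the promoter motifs were not searched.

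Mapped reads and gene lengths were recovered from steps in the RPKM values, to a relative tolerance of 1e-09. On simulated data, where every gene had whole reads over 1 length, this returned 40 of 40 totals. Given the true totals, and with genes of very many reads left out, it returned 299 of 300 lengths. In the deposited values a length was found for 91 of 300 genes. The accuracy of the recovered lengths and read counts of the keratins was not tested. No reads were recovered for krt91 or for Pec-fin, where 42.9% of 91 genes were whole. The background was the set of genes reaching 1 RPKM in any library. Lists and members were chosen with earlier results of these data known. All 7 members are named. From other keratins those at 100 RPKM or more are named, with others named as neighbours after their values were seen. Up to 3 genes per list were named by size of difference, at 10 RPKM or more in the higher library. grhl3 at oblong-sphere, TP63, pkp1a and the adhesion genes that were lower at 50%-epiboly were named after their values were seen. Likeness took the 3 highest r per member. Python 3.11.15, numpy 2.4.6, pandas 2.3.3, scipy 1.17.1 and matplotlib 3.10.9 were used.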

Additional observations from a re-analysis of the deposited data

How the results depend on the processing

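Each step was recomputed with a pseudocount of 0.1, with median-of-ratios scaling, with scaling without the 100 most abundant genes or without the mitochondrially encoded genes, and with no filter. Leaving out the filter could not change a count of the 7 members, since all of them pass it. There were 86 counts of members, with these unchanged ones and the alternative libraries named below included. Of the 86, 10 moved by more than 1.5 times, or to or from 0. At 64-cell to oblong-sphere the pseudocount of 0.1 gave 1 higher and 5 lower. At 50%-epiboly to 15-somite median-of-ratios scaling gave 0 higher and 3 lower. From 15-somite to Prim-25, starting from 50%-epiboly, an alternative chosen after seeing the data like those that started from 64-cell or ended at Pec-fin, gave 2 higher. At Protruding-mouth to 1 week, scaling without the 100 most abundant or without the mitochondrially encoded genes gave 3 higher, and these and median-of-ratios scaling gave 1 lower, krt4. The cause was not tested, and the share of all genes past the threshold was not computed for any of these alternative settings. Of 224 single-gene differences 15 changed side of the 2-fold threshold, and 0 past it reversed. Of 224 list medians 13 changed side, of 14 tau values 3 moved, of 7 highest libraries 2 moved (krt92 and krt97), and 9 of 14 sets of most alike genes changed. The type II ratio stayed above 1 in 9 of 9 libraries when the most abundant gene of each group was left out. No paired analysis was possible because each stage had 1 library. Depth limits the values of krt92, krt97 and krt99 before epiboly.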

Other observations

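The skin surface genes icn and icn2 encode S100-type calcium-binding proteins. As deposited, they had a local maximum at Pec-fin that none of the 7 keratins had. After median-of-ratios scaling krt91 had one too, with 105, 140 and 124 from Long-pec to Protruding-mouth. icn was at 23.7 RPKM at 50%-epiboly, 70.4 at 15-somite, 307 at Prim-25, 507 at Long-pec, 816 at Pec-fin, 278 at Protruding-mouth and 1088 at 1 week. icn2 was at 5.34, 45.0, 279.6, 387, 511, 150.5 and 296 RPKM at the same stages. Both had a local maximum at Pec-fin and were at least 2-fold lower at Protruding-mouth, a step at which 0 keratin members passed 2-fold. The same held for s100a10b of their list, with 202, 315 and then 130 RPKM from Long-pec to Protruding-mouth. Genes of other lists, cldnb, epcam, AGR2 and vimr1, also had a local maximum at Pec-fin, while cldne and GFAP did not. Pec-fin is the library for which no total was recovered. These genes were picked after their values were seen.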
